A study of Oncorhynchus kisutch with 82 samples.

Results

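The 120 array probes described here were measured in gill of coho salmon (Oncorhynchus kisutch). Their median log ratios were lower in fish caught at sea in the fall than in smolts and summer fish. They were chosen from 43236 probes on the array by their measured values. A probe could be chosen when it had a value on at least 60% of the arrays in each of the smolt, summer and fall groups of both years, which 20368 probes did. Its score was the lowest of its 4 smolt and summer medians minus the higher of its 2 fall medians. The score was above 0 for 1080 probes, and the 120 highest scores were taken. Fall against smolt and summer fish on the arrays behind the score is therefore given below as a description, with no test.

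The gill is the fish's exchange surface for gases, salt and nitrogen waste. In fresh water its ion-transporting cells take up salt, and in sea water they secrete it. The change from one mode to the other is prepared while the fish is a smolt, the river stage that migrates to the sea. Gill also holds blood, lining epithelium and immune cells. A difference in RNA between whole gills can thus come from the number of cells of a type or from RNA per cell. Bulk samples cannot tell these apart.

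The study followed gene expression over life stages, with 1 gill sample of 1 fish on each of 82 two-colour arrays. Each fish's RNA shared its array with a pool made from the gill RNA of all samples, which carried another dye. Of the fish, 27 were smolts caught in rivers. At sea 4 were caught in spring, 22 in summer, 27 in fall and 2 in winter. The smolts came from the areas labelled chilliwack (15 fish, all of 2008 and stock Chilliwack_R) and, in 2009, chehalis (8 fish) and salmon (4 fish), both of stock Fraser. Hatchery fish made up 16 of them and wild fish 11.

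The 4 spring fish were wild, of 2009 and from the area labelled south_SoG, with 2 of stock Fraser, 1 of Chilliwack_R and 1 of S_Main. Of the summer fish, 7 were of 2008 and 15 of 2009, and they came from north_SoG, mid_SoG and south_SoG. By origin 9 were from hatcheries and 13 wild, and by stock 21 were Fraser and 1 S_Main. Of the fall fish, 15 were of 2008 and 12 of 2009, from the same areas except for 1 of WCVI. By origin 13 were from hatcheries and 14 wild. By stock 7 were Chilliwack_R, 18 Fraser, 1 S_Main and 1 had none. Both winter fish were hatchery males of 2009 from WCVI with the stock label Puget_Sound. Fork length was 11.3 ± 1.97 cm (mean and SD) in the 27 smolts, 11.5 ± 1.37 cm in spring fish, 17.5 ± 2.19 cm in summer fish, 25.5 ± 2.21 cm in fall fish and 37.0 ± 1.34 cm in winter fish, so the stages also differ in size.

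Values are the deposited log ratios, taken as log2. Which base the logarithm has, and whether fish or pool is on top, is stated in none of the sources used here, so "low" and "lower" below refer to the deposited value and could mean less or more RNA than in the pool. Probes are called by their array ID, because the files and the gene table at hand pair none of them with a gene or a sequence. For the same reason the tissue label was not checked against gill marker genes. On 14 arrays the log ratios were spread more widely than on the others, with an SD above 1.3. These wide arrays held 7 of the 2008 smolts, 5 of the summer fish caught in 2009 and, from the fall, fish 1012 and fish 3020. They were not used to choose the probes and are given apart. On the other 68 arrays there were 20 smolts, 4 spring, 17 summer, 25 fall and 2 winter fish.

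Log ratios were low in nearly all fall fish and in both winter fish, and spread widely among smolts and summer fish. The median over the 120 probes, taken within each fish, lay between -3.72 and 2.39 in the 20 smolts, with a median fish at -1.03. The 4 spring fish lay between -2.54 and -0.68. In the 17 summer fish the range was -4.39 to 0.44 with a median of -1.07, and in the 25 fall fish it was -4.59 to -0.69 with a median of -3.53. Both winter fish were low, at -3.99 and -3.52. Of 118 members with a winter value, 74 had a winter median below the fall median. The groups overlapped: 1 of 20 smolts and 1 of 17 summer fish lay below the median fall fish, and 2 of 25 fall fish lay above the median summer fish.

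Fish of 1 stage differed more on these probes than on others. The probes were chosen for a large gap in these same fish, which can favour a wide spread, so this is a description. The SD over fish of a typical member was 1.65 in smolts, 1.63 in summer fish and 0.97 in fall fish. Over all 20368 eligible probes these medians were 0.49, 0.41 and 0.51. Without the 2 highest fall fish, 661 and 811, the fall medians were 0.68 for members and 0.52 for eligible probes. By year, the median smolt was at -0.15 in 2008 (n = 8) and -1.42 in 2009 (n = 12). Summer fish had medians of -0.55 in 2008 (n = 7) and -1.16 in 2009 (n = 10), and fall fish of -3.39 in 2008 (n = 14) and -3.58 in 2009 (n = 11). For smolts, year cannot be told apart from river, as no river was sampled in both.

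Several fish stood apart from their stage. Among fall fish, 661 (-0.69) and 811 (-0.90) were the highest, and the next was at -2.23. Both were males of 2008 from mid_SoG, fish 661 wild and of the Fraser stock and fish 811 a hatchery fish of the Chilliwack_R stock. Among summer fish, 576 was the lowest at -4.39 and shared a slide with fish 661. Among smolts, fish 36 (2.39) and fish 1 (1.86) were the highest. The main results on fall fish are therefore also given without 661 and 811, which were picked for these values.

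The gap between fall and earlier fish was estimated for each member with year and origin as covariates. Fall minus the mean of smolt and summer was -2.03 for the median member, with members between -3.82 and -0.85. All probes tested had a median of -0.02. The members' median was -2.43 in 2008 alone and -1.83 in 2009 alone, and -2.22 without fish 661 and 811. With slide as a fixed block it was -1.31, with 119 of 120 members below 0. On the 12 slides that held both fall and earlier fish, the fall fish were lower on 11, with a difference of only -0.02 on 1 of these. The median difference within a slide was -1.11. On the slide of fish 661 and 576 the fall fish was higher by 2.22.

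The highest score, 3.84, was that of C101R031. Its log ratio had a lowest, median and highest value of -5.71, -1.16 and 2.41 in 20 smolts, of -6.34, -1.09 and 2.08 in 17 summer fish and of -7.08, -5.80 and -0.67 in 25 fall fish. The 4 spring fish were at -0.01, -1.28, -3.51 and -2.17, and the winter fish at -5.84 and -6.48. Both winter fish lay at or below the fall median, and all 4 spring fish lay above it.

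The probe C086R068 followed with smolts at -6.00, -1.40 and 3.01 (lowest, median, highest), summer fish at -6.81, -1.53 and 1.56 and fall fish at -7.36, -6.05 and -1.02. For C148R013 the same 3 values were -6.21, -1.27 and 2.79 in smolts, -6.28, -1.28 and 2.14 in summer fish and -7.02, -5.65 and 0.26 in fall fish. In both, the lowest smolts and summer fish lay near or below the fall median, and the high end of the fall fish reached above the smolt median.

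Fall fish were less far down for the next 3 probes. C011R086 had -4.27, -0.89 and 3.28 in smolts, -5.07, -0.86 and 1.27 in 16 summer fish with a value and -5.14, -4.06 and -0.49 in fall fish. C117R081 had -5.26, -1.11 and 3.28 in smolts, -5.42, -1.07 and 0.87 in summer fish and -6.19, -4.77 and 0.12 in fall fish. C043R152 had -4.40, -1.07 and 3.08 in smolts, -4.77, -0.81 and 0.85 in summer fish and -5.70, -4.38 and -0.54 in fall fish. The groups overlapped in each of the 6 probes, and the 2 highest fall fish were 661 and 811 in each.

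The probes ranked 7 to 12 were C122R068, C044R069, C042R099, C050R084, C179R085 and C058R020, with scores of 2.68, 2.67, 2.44, 2.43, 2.23 and 2.23. Their fall medians lay between -5.41 for C044R069 and -3.37 for C179R085. At the lower end, C045R106, C154R103 and C039R088 were the last to be taken, with scores of 0.57 each. Just outside were C116R147 and C205R034 with 0.57 and C192R165 with 0.56, so nothing in the scores marks the 120th probe as a boundary. C116R147 had fall medians of 0.02 in 2008 and 0.09 in 2009, near the pool, so a score above 0 did not require a low level.

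In no member were the fall values clear of all smolt and summer values. Over all pairs of a fall fish and an earlier fish, the fall fish was lower in 78.4% to 98.7% of pairs, with a median member at 85.6%, and at 89.9% without fish 661 and 811. The lowest of the 4 earlier medians was that of the smolts of 2009 for 75 members, of the summer fish of 2008 for 38 and of the summer fish of 2009 for 7. Among fall fish C192R014 varied most (SD 1.94) and C133R072 least (SD 0.46). Without fish 661 and 811 these ends were C192R014 (SD 1.59) and C194R144 (SD 0.37).

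Within a stage the members rose and fell together from fish to fish. Year means were taken out first, and these correlations are descriptions in which all points of a fish share 1 array. The median correlation between 2 members was 0.74 over 20 smolts, 0.82 over 17 summer fish and 0.76 over 25 fall fish, against 0.004, 0.03 and 0.01 between 2 eligible probes in general. Over the 23 fall fish other than 661 and 811 it was 0.55. Of the 120 members, 107 had r above 0.5 with the median of the other members in all 3 stages. In fall fish 97 of these 107 stayed above 0.5 without fish 661 and 811. Among the other 20248 eligible probes, 63 had r above 0.5 with the median of those 107 in all 3 stages, and 0 had r below -0.5 in all 3. In a single stage, r was below -0.5 for 277 of them in smolts, 639 in summer fish and 35 in fall fish. It was above 0.5 for 415, 730 and 140. How many of either sign arise by chance over so few fish was not tested. The score does not use fish-to-fish variation within a group, but probes with a large gap and large variation were measured in the same fish, so signs of different members are not independent observations.

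Places on the array were compared next. A member had another member within 1 spot in 3.33% of cases, and another eligible probe had a member that near in 2.10%. Within 5 spots the shares were 22.5% for members and 26.8% for other eligible probes. The 425 eligible neighbours that were not members had a median fall gap of -0.03, and all eligible probes had -0.02.

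The neighbouring pairs within 2 spots were C086R068 with C087R070, C043R152 with C043R150, C179R085 with C181R087, C090R154 with C089R155 and C232R115 with C233R116. Over fall fish they correlated with r of 0.86, -0.04, 0.75, 0.80 and 0.51. C043R152 and C043R150, 2 spots apart, thus had r near 0.

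A set of 9 members stood apart from the common profile, with r below 0.3 in at least 1 stage: C220R134, C257R070, C048R027, C043R150, C132R115, C090R142, C200R148, C163R036 and C058R044. Another 4 members lay between. The 9 were picked for their values and get no test. Their fall gap was of similar size, -1.86 at the median against -2.11 for the 107, but fall and earlier fish overlapped less at the median member. The fall fish was lower in 94.1% of pairs for the median one of the 9 and in 85.5% for the median one of the 107. The range was 80.8% to 98.7% in the 9 and 78.4% to 90.2% in the 107, so not each of the 9 overlapped less. Without fish 661 and 811 the median shares were 93.6% and 89.9%. Their SD over fish was 0.80 in summer fish and 0.96 in smolts, where the 107 had 1.69 and 1.68. In fall fish it was 0.80 for the 9 and 1.01 for the 107. Without fish 661 and 811 the order turned, with 0.80 for the 9 and 0.68 for the 107.

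Of the 9, C220R134 had the largest gap. Its lowest, median and highest log ratios were -2.69, 0.20 and 1.83 in smolts, -2.93, -1.16 and 0.82 in summer fish and -5.50, -3.70 and -1.77 in fall fish. C043R150 had -2.07, 0.28 and 2.51 in smolts, -2.58, -1.40 and 0.17 in summer fish and -5.56, -3.37 and -1.76 in fall fish. Here few fish crossed: 5 of 37 smolts and summer fish lay below the highest fall fish in C220R134, and 22 of 37 did in C101R031. The count for C101R031 rests on its highest fall fish, which was 661 or 811, and is not given here without these fish.

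Among the 9, C220R134, C043R150, C257R070, C132R115 and C058R044 correlated with each other at r of 0.81 to 0.97 in smolts, 0.63 to 0.92 in summer fish and 0.60 to 0.91 in fall fish. These 5 were also picked for their values. The medians of the 107 and of the 9 correlated at 0.20 over smolts, 0.37 over summer fish and 0.03 over fall fish, or 0.18 over fall fish without 661 and 811.

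Fish that stood apart in the 107 did not do so in the same way in the 9. Fall fish 661 had a median of -0.58 over the 107, the highest of 25 fall fish, and of -2.74 over the 9, the fourth lowest. In C220R134 and C043R150 it had the lowest values of all fall fish, -5.50 and -5.56. Summer fish 576, the lowest summer fish over the 107 at -4.46, was at -0.995 over the 9, within the range of -1.60 to 0.55 of the 17 summer fish. These 2 fish shared a slide, and whether the slide has a part in this was not tested.

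A further split lay inside the 107. Of these, 16 followed the profile in fall fish (r of 0.82 to 0.96) but less so in summer fish (r of 0.61 to 0.72), limits of 0.8 and 0.75 that were set after seeing the values. Without fish 661 and 811 the r of the 16 in fall fish was 0.77 to 0.92. In summer fish 502, a wild male of 2008 from north_SoG, the 16 had a median of -4.15 and the other 91 a median of 0.83. Without fish 502 the 16 had a median r of 0.95 in summer fish against 0.96 for the 91.

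Within fish 502 most of the 16 lay below the 91 others, without a wide step between the sets. The 16 were picked for a low r over summer fish that include fish 502, so their low values there are no separate result. Of them 15 lay at -3.10 or lower, among them C192R014 at -5.88, C177R101 at -5.36 and C179R085 at -4.16. The median of the 16 in this fish lay within the range of that median in fall fish, -4.98 to -0.13. The exception was C138R117 at 3.58, the highest of all members in this fish. Its r in summer fish was 0.71 with fish 502 and 0.70 without it. The 91 others ranged from -2.61 to 3.42 in the same fish, and C086R068 and C087R070, neighbours on the array, lay in different sets. In smolts, spring and summer fish the 16 were usually above the 91, by 1.04, 1.18 and 1.26 at the median fish. Besides fish 502, they were below the 91 by over 0.5 in 2 smolts. Fish 36 had 1.13 for the 16 and 2.63 for the 91, and fish 1616 had -1.82 for the 16 and -1.04 for the 91. In fall and winter fish the 16 minus the 91 was -0.21 and -0.34 at the median fish.

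Winter and spring fish took no part in choosing the probes and could be tested. All 82 members with a value in both winter fish and in at least 50% of the spring fish were lower in the 2 winter fish than in the 4 spring fish. Their median difference in the model was -2.38, with members between -5.21 and -0.66, against -0.05 over all 18994 probes tested. The model holds an origin term, so its differences are not plain differences of means. For C101R031 the model gave -5.21, where the means were -6.16 in winter fish and -1.74 in spring fish. The other 38 members did not pass the filter on values. In winter fish 83.3% of the members' values were present, against 92.1% for eligible probes. The rule by which the authors left values empty is not given, so its part in these medians was not tested.

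After adjustment over all probes by limma, 2 of the 82 members were called lower in winter and none higher, where 0.0579% of all probes were called in either direction, 0.0263% lower and 0.0316% higher. At an unadjusted p under 0.05 (limma) there were 45 of 82 members and 4.35% of all probes. Both called members belong to the 9 apart from the profile. C220R134 was at -3.78 and -4.57 in winter fish, against 0.29, 0.73, -0.63 and -0.41 in spring fish, a difference of -4.32 ± 0.85 (SE, adjusted p = 0.0148, limma). C043R150 was at -3.30 and -3.51 in winter fish, against 0.36, 0.57, -0.21 and 0.58 in spring fish, a difference of -3.91 ± 0.83 (SE, adjusted p = 0.0282, limma). In both probes the 2 groups did not overlap, which was also so in C101R031, a member that was not called. The share of all probes without overlap is not given here.

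The highest scoring member, C101R031, had the largest difference in the model, -5.21 ± 1.71 (SE), and was not called (adjusted p = 0.648, limma). Spring and winter fish differed in more than season. All spring fish were wild and from south_SoG and both winter fish were hatchery fish from WCVI. The origin term was therefore estimated from the other stages, and it enters each winter minus spring difference given here. Capture area, stock and fork length (9.8 to 12.9 cm in spring, 36.1 to 38 cm in winter) cannot be told apart from season. Both winter fish were males, and no spring fish had a recorded sex. The call of C043R150 was lost without any 1 of 6 fish (adjusted p of 0.0512 to 0.399). That of C220R134 was lost without spring fish 2134 (0.0519), winter fish 4207 (0.116) or winter fish 4215 (0.365). With 1 winter fish left, a value in that fish was enough for a probe to be tested, and the lone fish was assumed to vary like the other groups.

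The wide arrays gave fall fish that the rule had not used. On them, all 119 members tested had a lower mean in the 2 fall fish (1012 and 3020) than the average of the smolt mean and the summer mean, over 12 fish. The median difference was -2.07, against -0.12 over all 17262 probes tested. The medians over members were -3.27 in fish 1012 and -2.22 in fish 3020, against a range of -1.91 to 0.67 in the 7 smolts and -2.34 to -0.40 in the 5 summer fish. Fish 3020 thus lay inside the range of the summer fish and fish 1012 outside both. Fish 1012 was also the only fall fish from WCVI and, at 32.8 cm, the longest. The 7 smolts were all of 2008 and stock Chilliwack_R, and the 5 summer fish were all of 2009. Stage was the only term in this model, so year, area, stock and length were not separated from it. Against each stage on its own, the fall mean was lower than the smolt mean in 117 members and lower than the summer mean in 114. C048R027 averaged -3.70 in the 2 fall fish and -4.68 in summer fish, C090R142 averaged -3.66 in fall fish and -4.91 in summer fish, and C244R022 averaged -3.50 in fall fish and -4.69 in summer fish. The other 2 that were higher in fall than in summer fish were C147R141 and C215R154, and the 2 that were higher in fall fish than in smolts were C226R069 and C048R081.

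Limma called 3 members lower and none higher on these arrays, where 0.0463% of all probes were called in either direction, 0.0406% lower and 0.00579% higher. C020R081 was at -4.23 and -3.80 in the fall fish, with 11 smolts and summer fish at a mean of 1.31 ± 1.62 (SD), a difference of -5.01 ± 0.73 (SE, adjusted p = 0.0175, limma). C247R033 was at -4.38 and -2.79 in the fall fish, with 12 earlier fish at a mean of 1.73 ± 2.04 (SD), a difference of -5.06 ± 0.85 (SE, adjusted p = 0.0367, limma). The third was C240R162, at -2.36 and -0.99 in the fall fish (adjusted p = 0.0417, limma).

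All 3 belong to the 16 probes with a lower r in summer fish, and all 3 were low in fish 502. Of the 7 smolts, none was below 1.82 in C247R033, while the 5 summer fish ran from -2.99 to 1.65, so the summer fish alone overlapped with the fall fish. With fish 1012 or fish 3020 left out no member was called on these arrays, and none with array weights. With 1 fall fish left, that fish was assumed to vary like the smolts and summer fish. The 14 arrays lie on 13 slides, and array position on the slide moved the count to 63 members, with 5.22% of all probes called.

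Within fall fish the level of the members was set against the fish's labels. Between 12 hatchery and 13 wild fall fish, limma called 0 of 120 members (0% of 24125 probes), and 0 with array weights. An unadjusted p under 0.05 was met by 0 members and by 1.32% of all probes. The median difference was 0.16, against 0.01 over all probes, and 0.13 without fish 661 and 811. C232R115 had the lowest p among members, with -2.15 ± 1.06 (SD, n = 12) in hatchery fish and -2.68 ± 0.69 (SD, n = 13) in wild fish, a difference of 0.59 ± 0.33 (SE, adjusted p = 1.00, limma).

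Over both years, the members leaned one way between 11 female and 13 male fall fish. Little of that lean was left without 2 fish picked for their high values. In females 110 of 120 members were lower, with a median difference of -0.67, against -0.004 over all probes. None was called by limma (0% of 23874 probes), also with array weights. An unadjusted p under 0.05 was met by 32 of 120 members and by 2.83% of all probes. C102R103 had -2.62 ± 0.36 (SD, n = 11) in females and -2.003 ± 0.61 (SD, n = 13) in males, a difference of -0.73 ± 0.22 (SE, adjusted p = 1.00, limma). Without fish 661 and 811, both males, the median difference was -0.05 and 66 of 120 members were lower in females, and with array position as a covariate it was -0.42. In 2008 the median fish was at -3.91 in females (n = 8) and -3.05 in males (n = 5). In 2009 it was the other way, at -3.21 in females (n = 3) and -3.62 in males (n = 8). In the 9 members apart from the profile, 4 were lower in females and the median was 0.03.

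Fork length within fall fish gave no called member in limma (0% of 24829 probes), and none with array weights. An unadjusted p under 0.05 was met by 1 of 120 members and by 7.44% of all probes. The median slope was 0.09 per cm, against 0.01 over all probes, and 0.11 per cm without fish 661 and 811. The member with the lowest p was C160R049, at 0.37 ± 0.17 per cm (SE, n = 25, adjusted p = 0.615, limma). With the wide arrays included, 1758 probes (7.16%) were called and no member.

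The stocks could be set side by side in the fall of 2008. Between 5 Chilliwack_R and 7 Fraser fish the members' median difference was 0.80, against 0.07 over all probes, with 5 of 120 members below 0. Without fish 661 and 811 it was 0.71. None was called by limma (0% of 23233 probes), also with array weights. An unadjusted p under 0.05 was met by 8 of 120 members and by 5.73% of all probes. The direction turned with array position as a covariate, where the median was -0.47 and 87 of 120 members were lower in Chilliwack_R fish. C229R038 had -1.41 ± 0.69 (SD, n = 3) in Chilliwack_R and -2.90 ± 0.59 (SD, n = 5) in Fraser fish, a difference of 1.82 ± 0.46 (SE, adjusted p = 0.728, limma).

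The same labels were set against the members in summer fish. Between 7 hatchery and 10 wild fish limma called 0 members (0% of 22213 probes), also with array weights. An unadjusted p under 0.05 was met by 2 of 120 members and by 3.67% of all probes. The median difference was 0.33, against 0.01 over all probes, and 0.11 without fish 576. C229R038 again had the lowest p, with 0.56 ± 1.03 (SD, n = 4) in hatchery fish and -1.21 ± 1.60 (SD, n = 10) in wild fish, a difference of 1.77 ± 0.68 (SE, adjusted p = 0.997, limma).

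With fork length in summer fish, limma called 0 members (0% of 23848 probes), also with array weights. An unadjusted p under 0.05 was met by 13 of 120 members and by 3.53% of all probes. The median slope of the members was -0.07 per cm, against -0.001 over all probes, with 79 of 120 members and 50.96% of all probes below 0. Without fish 502, left out after its values were seen, the median was -0.30 and 116 of 120 members were below 0. The members rise and fall together, so these counts are not of independent observations. The share of all probes below 0 without fish 502 is not given here. C087R070 had a slope of -0.68 ± 0.24 per cm (SE, n = 17, adjusted p = 1.00, limma). Of the 13, 12 belonged to the 16 probes with a lower r in summer fish. Most of the 16 were low in fish 502, which was 20.2 cm long. With array position as a covariate 13 members were called, with 0.0923% of all probes, and C087R070 had an adjusted p of 0.00513 (limma).

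By sex, the summer fish of 2008 with a recorded sex parted without overlap, 3 females against 3 males. The 3 females had member medians of -4.39 to -2.88, against -0.48 to 0.44 in 3 males and -0.55 in 1 fish of unknown sex. This was seen in the values and not tested, and no share over all probes is given here. In 2009 the 5 females (-2.63 to -0.38) and 5 males (-3.53 to 0.23) overlapped throughout.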

How the data were processed

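Gill RNA of 82 coho salmon, each a separate fish, was measured on two-colour arrays on 31 slides. The authors deposited 1 log ratio of fish and pool per probe and array, normalized before deposit by steps that no source used here gives, and these deposited values were taken as log2. A processed table and a series table held the same values wherever both had one. Background correction, direction and the rule for empty values (45.6% of all) are likewise not stated, and the number of arrays limits the precision. Arrays with an SD above 1.3 took no part in choosing probes. The members, comparisons and naming rules were chosen with earlier results of these data known.

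Each comparison was one linear model per probe over the whole table (limma 3.58.1, R 4.3.3, moderated two-sided tests) with Benjamini-Hochberg adjustment and calls at an adjusted p below 0.05. Probes needed a value in 50% or more of each group and in no fewer than 2 fish (1 where leaving out a fish left a group of 1). For winter against spring the model held the 68 arrays at or below that SD, of all stages, with terms for stage, year and origin. Within a stage, year and origin were terms where they varied. The scripts were tested on simulated data.

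Probes named were the 12 highest scores, 3 on each side of the limit, array neighbours, extremes of spread and, per comparison, the 2 largest called differences each way or else the lowest p. The probes apart from the profile, the 16, those quoted in fish 502 or on wide arrays by stage, C194R144 and C240R162 were named after their values were seen. Alternatives were centring, quantile normalization, the series table, complete probes, array weights, array position, wide arrays, slide, covariates and single fish. Python 3.11.15 and pandas 2.3.3 were also used. Lists of cell type markers could not be applied, since the probes carry no gene names.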

Additional observations from a re-analysis of the deposited data

Results flagged for a closer look

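In groups of 4 to 10 fish, 130 sets of values were checked for a fish far from the others, and 5 had one. Chance alone gives about 1 in 20. In the summer fish of 2009, C086R068 was at -6.40 in fish 2786 and at -3.61 in the next lowest of 10. In the summer fish of 2008, C048R027 was at 1.42 in fish 502 and at -0.12 in the next highest of 7. On the wide arrays of summer 2009, fish 2857 had the highest value of C011R086 (-0.89, next -1.78) and of C117R081 (-1.05, next -3.17) and the lowest of C200R148 (0.058, next 0.77), each among 5 fish.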

How the results depend on the processing

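The fall gap of the members was -2.03, and in the 10 alternatives it lay between -2.43 (2008 alone) and -1.31 (slide as a fixed block). The members were chosen by this contrast, so that its direction was kept is a description and no test. Each value was within 1 SD between fall fish (0.93) of -2.03, a wide limit that the smaller gap with slide as a fixed block also met. The choice itself kept 102 to 119 of the 120 probes. Against 2 members called lower in winter than in spring, there were 1 with quantile normalization, 1 with array position, 1 with all arrays, 7 with array weights and 26 with spring and winter fish only. Leaving out 1 fish gave 0 to 1, with 0 without spring fish 2134 or either winter fish. On the wide arrays, 3 members were called, against 15 with quantile normalization, 8 with complete probes, 0 with array weights, 63 with array position and 0 with fish 1012 or fish 3020 left out. In summer, 13 members were called for fork length with array position and 0 otherwise. Causes were not tested. For most of these alternatives the share of all probes called is not given here. A rise in the members called can then not be told apart from a rise in calls over all probes. The 9 probes named for a tested comparison were picked for their values in the same fish, so their direction is a description and no test. Between stocks the members' median turned with array position, as given above. The 9 probes kept their direction in their comparison in all 111 alternatives run for them. Those without fish 661, 811, 576 and 502 were added after seeing the data. With slide as a fixed block, the fall gap was above 0 in 1 of 120 members. No analysis paired by replicate number was possible, because each fish has a number of its own. Slides that held fall and earlier fish entered as a block, as given above. Those comparisons rest on 2 winter fish and on 2 fall fish on wide arrays.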

Other observations

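The common profile of the members was rare but not confined to the chosen probes. Among 20248 eligible probes outside the 120, 63 had r above 0.5 with the median of the 107 members in smolts, summer and fall fish alike, and 5 had r above 0.8. Of the 63, 61 were lower in fall, with a median of -1.07, and 37 had a score above 0. Among the members 64 had r above 0.8 with the median of the others in all 3 stages.

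The smolts of 2008 held the highest values. Fish 36, which at 5 cm and 1.72 g was the smallest, had a median of 2.53 over the 107 probes and 0.45 over the 9 apart from them. Fish 1 had 1.97 over the 107 and -1.26 over the 9, the second lowest of 20 smolts on the 9.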
